A study of Mus musculus with 4 samples.

Results

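The interleukin 6 family and its signal transducer STAT3 are described here through 10 genes of the 25413 in the count table, taken by name: the ligands Il6, Lif, Il11 and Clcf1, the receptor chains Il6ra, Il6st, Lifr and Osmr, the transcription factor Stat3 and its feedback inhibitor Socs3. All 10 were found. Their transcripts were measured by polyA RNA-seq in EpH4, a line derived from mouse mammary epithelium, labelled wildtype and grown in 2D culture. The study had 2 groups of 2 libraries each, 1 left untreated (Control) and 1 exposed to PM2.5, particulate air pollution fine enough to be inhaled deep into the lung. Both groups were the same line and genotype and carry the same batch label. Neither the particle dose nor the exposure time is in the labels, and nothing says that the replicates were separate cultures, so p-values measure the spread between these libraries, which may be technical.

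Cytokines of this family bind a ligand-specific receptor chain that pairs with the shared chain gp130, encoded by Il6st. Interleukin 6 uses Il6ra and interleukin 11 a receptor of its own. Leukaemia inhibitory factor (Lif) uses Lifr, and oncostatin M uses Osmr. Cardiotrophin-like cytokine (Clcf1) acts through a receptor complex that holds Lifr. Receptor-bound JAK kinases then phosphorylate STAT3, which moves to the nucleus and switches on target genes, among them Socs3, whose product shuts the receptor down. In the mammary gland this pathway is best known for the start of involution after weaning, when Lif activates Stat3 in the epithelium.

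Promoter sequence is shown for the 3 members that best display the letters recognised by factors of this pathway: the STAT palindrome in front of Socs3, the NF-kB and AP-1 elements in front of Il6, and an AP-1 element in front of Lif, the ligand that rose. Each is the 250 bases before a RefSeq start site, on the GRCm38.p6 build and written 5′ to 3′ on the gene's strand. Matches to the STAT, AP-1 and NF-kB letters are in capitals.
Socs3, chr11:117969367-117969616, minus strand: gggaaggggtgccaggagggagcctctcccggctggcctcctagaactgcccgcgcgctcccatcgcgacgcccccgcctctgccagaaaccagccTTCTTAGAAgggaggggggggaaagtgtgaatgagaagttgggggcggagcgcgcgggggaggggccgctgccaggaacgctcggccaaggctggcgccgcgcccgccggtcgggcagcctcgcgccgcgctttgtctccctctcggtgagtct
Il6, chr5:30012864-30013113, plus strand: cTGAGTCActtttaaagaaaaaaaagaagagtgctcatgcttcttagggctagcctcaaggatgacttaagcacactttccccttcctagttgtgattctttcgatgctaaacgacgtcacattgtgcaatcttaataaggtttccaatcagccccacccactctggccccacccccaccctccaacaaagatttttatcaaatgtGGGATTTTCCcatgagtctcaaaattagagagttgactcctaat
Lif, chr11:4257318-4257567, plus strand: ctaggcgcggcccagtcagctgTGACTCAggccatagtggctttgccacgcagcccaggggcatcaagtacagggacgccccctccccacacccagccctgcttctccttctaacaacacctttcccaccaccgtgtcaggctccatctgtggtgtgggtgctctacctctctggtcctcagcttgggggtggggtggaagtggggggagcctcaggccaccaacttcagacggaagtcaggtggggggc
The capitals in Socs3 are TTCTTAGAA, a match to the STAT motif TTCNNNGAA that begins 154 bases before the start site. In Il6 they are the AP-1 match TGAGTCA, 249 bases before the start, and a match to the NF-kB consensus, GGGATTTTCC, 44 bases before it. In Lif they are TGACTCA, 228 bases before the start.

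RefSeq windows were matched for 9 of the 10 members, 11 windows in all, and Clcf1 had none. Both strands were searched, and no capitalised match overlapped another. The STAT motif was found in 1 of the 11 windows, that of Socs3, against 7.02% of all 32851 promoter windows of this length. AP-1 (TGANTCA) was found in 3, those of Il6, Lif and 1 of 2 for Il11, against 6.75% of all windows. The NF-kB consensus was found in 1, against 3.9%, and the cAMP response element TGACGTCA in 0, against 1.55%. The core letters of the dioxin response element, GCGTG, were found in 2, those of Lif and Lifr, against 28.2%. The match in Lif, 204 bases before the start and on the opposite strand, was left in lower case. A match describes letters in the window and says nothing of binding.

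Total counts were 18548478 to 26206329 per library, and 12478 genes passed the filter on low counts. The cells carried few transcripts of the labelled epithelial type. Of 11 epithelial markers 8 were at or under the floor of 3 counts in every library, and 6, among them Epcam and Krt18, had 0 counts. Their summed level was 51.3 to 53.3 CPM (counts scaled to library size with TMM factors) in controls and 20.0 to 21.5 CPM in PM2.5, nearly all of it the basal keratin Krt14. The 9 mesenchymal markers summed to 8650 to 9264 CPM in controls and 6192 to 6755 CPM in PM2.5, a sum carried by Fn1, Vim and Col1a2, which fell. Of the 8 tested 5 were lower and 2 higher, against 20.4% lower and 19.2% higher of all tested genes. The 2 higher were the collagens Col3a1 (3.13-fold) and Col1a1 (1.39-fold). Leukocyte markers summed to 65.5 to 75.8 CPM in controls and 68.5 to 75.7 CPM in PM2.5, mostly Cd14. The leukocyte genes Itgam and Cd3e were at 0 and Ptprc was at most 0.158 CPM, while the lysosomal marker Cd68 rose from 3.93 to 9.67 CPM. In bulk RNA, fewer cells with a transcript and less transcript per cell cannot be told apart, and the part of these marker shifts in the results below was not tested.

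After PM2.5 the ligand Lif, the receptor chains Il6ra, Il6st and Osmr and the feedback inhibitor Socs3 were higher, and the ligand Clcf1 was slightly lower. The receptor chain Lifr was also called higher, but it passed the filter on low counts only through the PM2.5 libraries. The way it entered the test favoured a difference, so its call is not taken as support. Il6, Il11 and Stat3 did not pass the test. Of the 10 members 6 were called higher and 1 lower (edgeR quasi-likelihood test, Benjamini-Hochberg adjusted p below 0.05 over all tested genes), against a background of 19.2% of tested genes called higher, 20.4% called lower and 39.6% called in all. The PM2.5 libraries lay both above or both below the controls in 7 of the 10 members, against 71% of all tested genes. Without Lifr 5 of 9 members were higher and 1 lower, with a median log2 fold change of 0.25 beside 0.01 over all tested genes. With DESeq2, which called 25.2% of the genes it tested, 4 members were higher and 0 lower. The 4 were Lif, Il6ra, Il6st and Lifr, and the call on Lifr is again not taken as support.

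**Figure D1:**
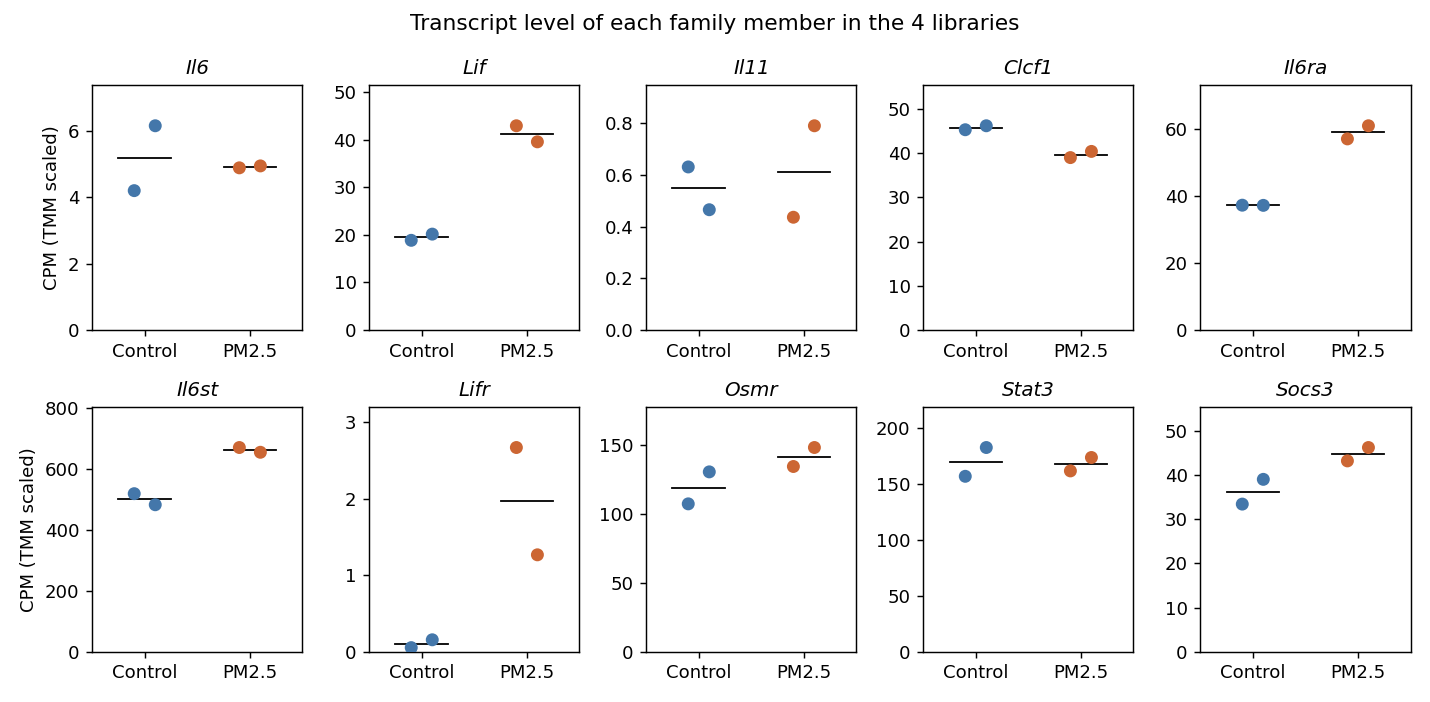
Transcript level of each member in TMM-scaled CPM, 1 point per library, with the mean of each group as a horizontal line; every axis starts at 0. The groups are well apart for Lif and Il6ra, close for Osmr and Socs3, and overlap for Il6, Il11 and Stat3.

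Lif, the ligand (ENSMUSG00000034394, chromosome 11, 4207557 to 4222514, plus strand, GRCm39), had 18.8 and 20.1 CPM in the controls and 42.9 and 39.5 CPM in the PM2.5 libraries. Both PM2.5 libraries lay far above both controls. The means were 19.5 ± 0.921 and 41.2 ± 2.39 CPM (SD, n = 2 each), a 2.11-fold rise or 1.08 on the log2 scale (SE 0.0829, edgeR adjusted p = 9.09e-06). Of all tested genes 95.4% had a smaller log2 fold change. The rise was called under all 16 alternatives, where it ranged from 0.94 to 1.31 on the log2 scale. The highest of these came from the positional correction. It sets each gene against the median log2 fold change of up to 25 tested genes on either side along the chromosome. The neighbours of Lif had a median of -0.23.

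Il6, the founding member (ENSMUSG00000025746, chromosome 5, 30218112 to 30224979, plus strand), stayed low in every library, at 4.21 and 6.17 CPM in the controls and 4.90 and 4.95 CPM in PM2.5. The PM2.5 libraries fell between the controls, whose own ratio was 1.47. The log2 difference was -0.09 with a 95% interval of -0.55 to 0.36 (edgeR adjusted p = 0.747). A change of either sign within that interval was not excluded. It was -0.32 without Control replicate 1 and 0.22 without Control replicate 2, with no call in either case.

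Clcf1, the cardiotrophin-like ligand (ENSMUSG00000040663, chromosome 19, 4264292 to 4273544, plus strand), had 45.3 and 46.2 CPM in the controls and 39.02 and 40.42 CPM in PM2.5. The groups did not overlap, and the gap between them was wider than the spread within either. The log2 fold change was -0.21 (SE 0.0681, edgeR adjusted p = 0.0345). That call ended with DESeq2 (adjusted p = 0.157), with scaling to library size only (log2 fold change -0.14), with upper quartile scaling, with limma-trend on log2(RPKM + 1) and when any of the 4 libraries was left out. With the positional correction it was -0.43 (adjusted p = 0.00107), since genes around Clcf1 had a median of 0.22.

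Il11 (ENSMUSG00000004371, chromosome 7, 4775372 to 4785858, minus strand) was near the limit of detection, with 12 and 12 counts in the controls and 9 and 15 in PM2.5. The scaled ratio of the sums was 1.13, with a 95% counting interval of 0.615 to 2.08, which covers counting error only. Its log2 fold change changed sign with single libraries left out, from -0.30 without PM2.5 replicate 2 to 0.55 without PM2.5 replicate 1.

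A further deposited count, the total gene reads, bears on these ligands. It was never below the raw count of a gene, and reads outside the raw count made up 9.81% to 11.7% of all gene reads per library. For Clcf1 that share was 59.3% to 62.2% and for Il11 86.7% to 94.7%. Clcf1 shares 9134 bases and its strand with the predicted gene Gm45928, which had 0, 3, 10 and 9 counts in the 4 libraries. For Il11 the total gene reads were 207 and 226 in the controls and 131 and 113 in PM2.5, so the groups were apart on that measure. Fitted on total gene reads, Il11 had a log2 fold change of -0.71 (edgeR adjusted p = 0.00748), in a comparison that called 39.1% of genes. Clcf1 was unaltered by that choice, at -0.21. What the reads outside the raw count are is not given in the sources used here.

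Of the receptor chains other than Lifr, Il6ra, Il6st and Osmr were called higher, against 19.2% of all tested genes; the call on Osmr ended in 8 of 16 alternatives. Il6st, the shared chain gp130 (ENSMUSG00000021756, chromosome 13, 112600604 to 112646620, plus strand), was the most abundant member, at 520 and 483 CPM in the controls and 671 and 656 CPM in PM2.5. The PM2.5 values lay above both controls. The means of 501 ± 25.7 and 664 ± 11.1 CPM (SD, n = 2 each) differed by 0.40 on the log2 scale (SE 0.0578, edgeR adjusted p = 0.000394), which was called under all 16 alternatives, between 0.30 and 0.47.

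Il6ra, the chain that binds interleukin 6 (ENSMUSG00000027947, chromosome 3, 89771366 to 89820503, minus strand), had 37.3 and 37.2 CPM in the controls and 57.1 and 61.0 CPM in PM2.5. The controls were almost identical and the PM2.5 libraries clearly above them. This was a 1.58-fold rise, 0.66 on the log2 scale (SE 0.0693, edgeR adjusted p = 5.43e-05), called under all 16 alternatives and between 0.56 and 0.73. Of all tested genes 91.1% had a smaller log2 fold change.

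Lifr, the chain for Lif (ENSMUSG00000054263, chromosome 15, 7120095 to 7226970, plus strand), was almost absent from the controls, with 1 and 4 counts, and present at a low level in PM2.5, with 55 and 24 counts. In CPM the values were 0.0526 and 0.155 against 2.67 and 1.26. Every PM2.5 value was above every control value, but PM2.5 replicate 2 held 0.474 of the level in replicate 1, a wider spread than in the other receptor chains. Summed and scaled, the ratio was 17.9 with a 95% counting interval of 7.34 to 56.6. With 1 library left out it was 12.9 (Control replicate 1), 11.3 (PM2.5 replicate 1) or 23.9 (PM2.5 replicate 2). Without Control replicate 2 the control side rested on 1 count and the ratio was 37.9, with an interval of 6.61 to 1517. The fitted log2 fold change was 4.08 (SE 0.609, edgeR adjusted p = 0.000509). Lifr passed the filter only through the PM2.5 libraries, where it was high, so these values are descriptive. On log2(RPKM + 1), where low values are compressed, the difference was 0.19 and was not called (limma adjusted p = 0.0745).

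Osmr, the oncostatin M chain (ENSMUSG00000022146, chromosome 15, 6843058 to 6904450, minus strand), had 107 and 130 CPM in the controls and 134 and 148 CPM in PM2.5. The higher control was close to the lower PM2.5 library. The log2 fold change was 0.25 (SE 0.0882, edgeR adjusted p = 0.0472), and the call ended in 8 of 16 alternatives, among them DESeq2 (adjusted p = 0.0621) and the positional correction (adjusted p = 0.0882). Without Control replicate 1 it was 0.11 (adjusted p = 0.247), without PM2.5 replicate 2 it was 0.17 and without Control replicate 2 it was 0.39.

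Stat3 (ENSMUSG00000004040, chromosome 11, 100775924 to 100830366, minus strand) had 157 and 183 CPM in the controls and 162 and 174 CPM in PM2.5, so the PM2.5 libraries lay between the controls. The log2 difference was -0.02, with a 95% interval of -0.19 to 0.15 (edgeR adjusted p = 0.862), and the sign turned under 7 alternatives without a call in any. Its gene model shares 72 bases with Stat5a, which lies on the opposite strand. The transcript level does not show how much STAT3 protein was phosphorylated.

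Socs3, the feedback inhibitor with the STAT match printed above (ENSMUSG00000053113, chromosome 11, 117856905 to 117860873, minus strand), had 33.4 and 39.1 CPM in the controls and 43.2 and 46.3 CPM in PM2.5. The groups did not overlap. The rise was 1.23-fold, 0.30 on the log2 scale (SE 0.0856, edgeR adjusted p = 0.0186). The call ended with DESeq2 (adjusted p = 0.0716), without Control replicate 1 (log2 fold change 0.20, adjusted p = 0.0941) and without PM2.5 replicate 2 (0.25, adjusted p = 0.0965). Within the controls the level in replicate 2 over that in replicate 1 varied by member, from 0.738 for Il11 and 0.93 for Il6st, through 0.999 for Il6ra, 1.02 for Clcf1, 1.07 for Lif, 1.16 for Stat3, 1.17 for Socs3 and 1.22 for Osmr, to 1.47 for Il6 and 2.95 for Lifr.

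**Figure D2:**
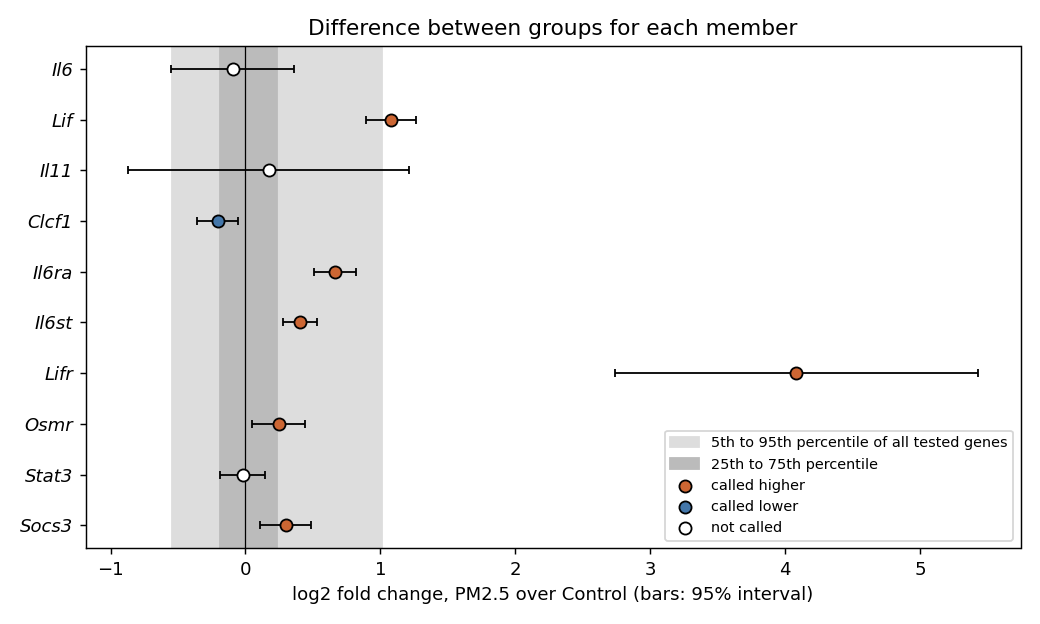
Log2 fold change of PM2.5 over Control for each member (points) with its 95% interval from the edgeR fit (bars); filled points were called, open ones were not, and the grey bands hold the middle of all tested genes. Lif at 1.08 lies beyond the 95th percentile of all tested genes, 1.01. Lifr, at 4.08, passed the filter only through the PM2.5 libraries, so its place beside the bands is descriptive.

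Levels can be compared between genes on the RPKM scale, which divides counts by gene length and library size and was deposited by the authors. In controls the order was Il6st at 37.6 RPKM, Stat3 at 22.7, Clcf1 at 18.3, Osmr at 18.0, Socs3 at 11.8, Lif at 4.00, Il6ra at 3.59, Il6 at 1.78, Il11 at 0.219 and Lifr at 0.00805. Only Clcf1 and Osmr had ranges that overlapped among neighbours in that order. In PM2.5 Il6st stood at 50.5, Stat3 at 22.7 and Osmr at 21.7, the last pair overlapping, and Lif had reached 8.59 RPKM. Il11 at 0.249 and Lifr at 0.155 overlapped at the foot of the order.

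Within a library, RPKM ratios between members do not depend on scaling to library size. They do depend on the gene lengths used and on which reads are counted. Reads outside the raw count were 59.3% to 62.2% of the total gene reads of Clcf1 and 30.5% to 37.5% of those of Lif. For Il6 that share was 26.6% to 37.3% and for Il11 86.7% to 94.7%. Clcf1 exceeded Lif by 4.70 and 4.48 times in the controls and by 1.77 and 1.99 times in PM2.5. Lif made up 16.3% and 16.6% of the RPKM of the 4 ligands in controls and 33.5% and 30.8% in PM2.5. Among receptor chains the make-up moved less: Il6st held 66.3% and 60.8% of their RPKM in controls and 65.9% and 63.4% in PM2.5, while the sum rose from 58.7 and 59.6 to 77.4 and 78.9 RPKM. Stat3 exceeded Socs3 by 1.92 times in both controls and by 1.53 and 1.54 times in PM2.5. No test was run on these ratios.

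**Figure D3:**
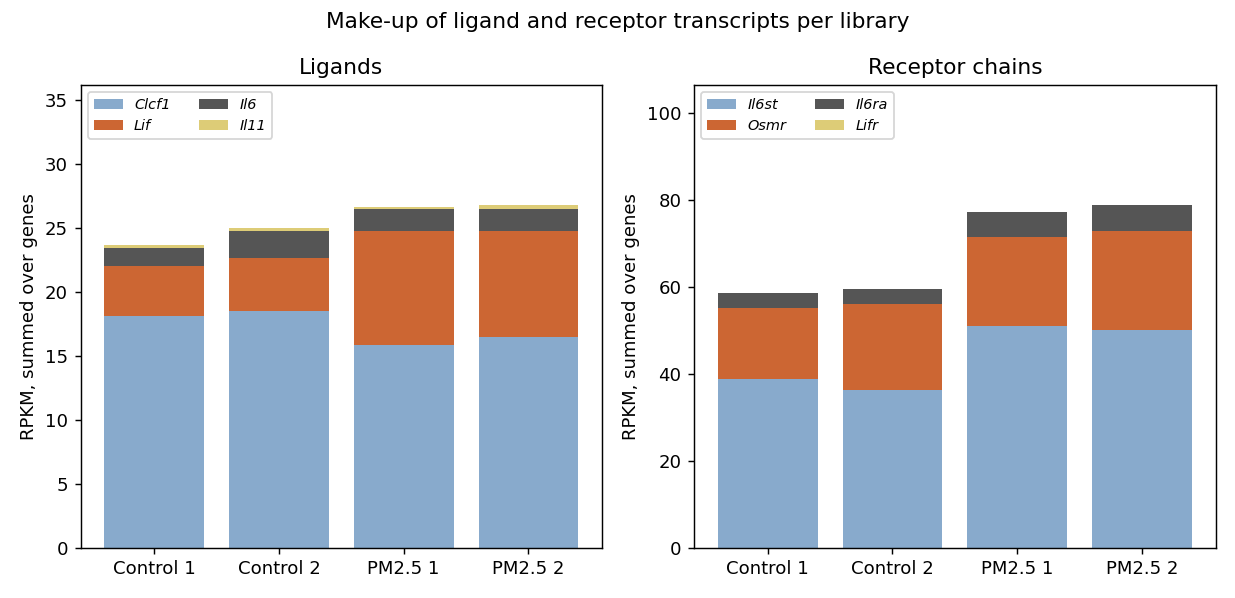
RPKM of the 4 ligands (left) and the 4 receptor chains (right) stacked in each library, from 0. The Lif share grows from 16.3% and 16.6% in controls to 33.5% and 30.8% in PM2.5, and the receptor stack is taller in PM2.5 with a similar make-up; Lifr is too low to see.

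The rest of the pathway was followed through 6 lists of 71 genes by role, of which 58 were tested. Together 19 were higher and 12 lower in PM2.5, with a median log2 fold change of 0.06; the 53.4% called, which include Icam1 (below the filter in controls), stand beside 39.6% of all tested genes. No other ligand was called, of 2 tested of 7: Cntf had a log2 difference of -0.40 (edgeR adjusted p = 0.238) and Ctf1 -0.24 (adjusted p = 0.412). Oncostatin M (Osm) had 0 counts in all libraries, although its chain Osmr was abundant. Of the 5 other receptors 2 were tested. Il11ra1, the interleukin 11 chain, fell from 28.0 ± 1.41 to 19.6 ± 0.411 CPM (log2 fold change -0.51, edgeR adjusted p = 0.00113), but its neighbours on chromosome 4 had a median of -0.47, and with the positional correction it was -0.04 with no call. Il27ra was at 0.638 and 0.423 CPM (adjusted p = 0.374), and Cntfr, a chain for ciliary neurotrophic factor, had 0 counts.

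Among 8 kinases and STATs 2 were higher and 3 lower (62.5% called, against 39.6% of all tested genes), and the median was 0.10. Jak2, a kinase that binds gp130, rose most, from 56.1 and 54.6 CPM to 147 and 141 CPM. It was 2.61-fold higher (log2 fold change 1.38, SE 0.0618, edgeR adjusted p = 2.08e-07), and 1.04 on the log2 scale with the positional correction, since the region had a median of 0.35. Tyk2, a related kinase, rose from 31.8 ± 1.97 to 42.2 ± 1.57 CPM. Jak1, the kinase most tied to gp130 signalling, fell from 340 ± 3.54 to 275 ± 1.47 CPM (log2 fold change -0.30, edgeR adjusted p = 0.00125). Stat5b, a STAT best known downstream of prolactin and growth hormone, fell from 71.0 ± 2.63 to 60.4 ± 0.389 CPM (-0.24 on the log2 scale, edgeR adjusted p = 0.0156). That call on Stat5b ended in 7 of 16 alternatives, among them the positional correction (-0.08, adjusted p = 0.368) and leaving out any library but Control replicate 1. The fall of Jak1 ended with the positional correction, at 0.05, and with it 0 of the list were lower. Of this list 1 was lower when either PM2.5 library was left out, and 4 were higher without Control replicate 2.

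Among 15 negative regulators 14 were tested, 4 higher and 2 lower, with a median of 0.04; the 42.9% called was near the 39.6% of all tested genes. Ptpn6, the phosphatase SHP-1, rose from 2.16 and 2.68 CPM to 5.91 and 7.06 CPM, 2.65-fold (edgeR adjusted p = 0.000439). Ptpn11, the related phosphatase SHP-2 that binds gp130, fell from 306 to 259 CPM (log2 fold change -0.24, adjusted p = 0.00993), which was not called once PM2.5 replicate 1 was left out. Pias3, which inhibits DNA binding by STAT3, rose by 0.31 and Ptpn1 by 0.29 on the log2 scale. Both calls ended with the positional correction (0.13 and 0.14) and without PM2.5 replicate 2, that on Ptpn1 also without Control replicate 2. Leaving out PM2.5 replicate 2 left 1 regulator higher and 1 lower, leaving out PM2.5 replicate 1 left 0 lower, and leaving out Control replicate 1 left 1 lower. Socs1, the closest relative of Socs3 on the list, had a log2 difference of 0.08 (adjusted p = 0.699) and was chosen after its value was seen.

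Genes known as STAT3 targets moved in both directions: of 27, 24 were tested, 9 were higher and 5 lower, 58.3% against 39.6% of all tested genes. Among the 9 was Icam1, an adhesion molecule named after its values were seen, which had 4 and 6 counts in controls and 17 and 15 in PM2.5. Icam1 and Fos, which was not called, passed the filter only through the PM2.5 libraries, and without both 8 of 22 were higher and 5 lower, with a median of 0.15. Hp, haptoglobin, was at 0.999 and 1.40 CPM in the untreated libraries against 10.95 and 14.97 CPM after PM2.5, 10.5-fold higher (log2 fold change 3.40, SE 0.232, edgeR adjusted p = 4.33e-06). Saa3, serum amyloid A, rose 8.50-fold and Lcn2, lipocalin, 2.26-fold; these are NF-kB targets too. In the other direction Cebpd, a transcription factor induced by STAT3 in involution, fell from 107 and 124 CPM to 69.2 and 74.7 CPM (log2 fold change -0.69, adjusted p = 9.72e-05). With the positional correction Cebpd was at -0.38 and stayed called. The number of targets lower was 3 without PM2.5 replicate 2, and the number higher was 6 with DESeq2. Fgg and Igfbp5 had 0 counts in every library.

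Among 9 regulators of Il6 and Lif transcripts 8 were tested, with 4 higher and 1 lower (62.5% called, against 39.6% of all tested genes). Jun, a subunit of AP-1, fell from 148 and 135 CPM to 78.0 and 76.9 CPM (log2 fold change -0.87, SE 0.0646, edgeR adjusted p = 7.51e-06), and with the positional correction it was at -0.58 and still called. Zc3h12a, an RNase that degrades Il6 mRNA, rose from 46.8 ± 0.0586 to 61.9 ± 2.2 CPM. Arid5a, which stabilises Il6 mRNA, averaged 14.0 ± 2.15 CPM without and 22.9 ± 1.92 CPM with PM2.5 and was called higher (0.69 on the log2 scale, edgeR adjusted p = 0.00135). Nfkb1 rose by 0.31 on the log2 scale, and that call ended with the positional correction (0.16, adjusted p = 0.0567). Zc3h12a and Arid5a, known to act on Il6 mRNA in opposite directions, were both called higher.

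**Figure D4:**
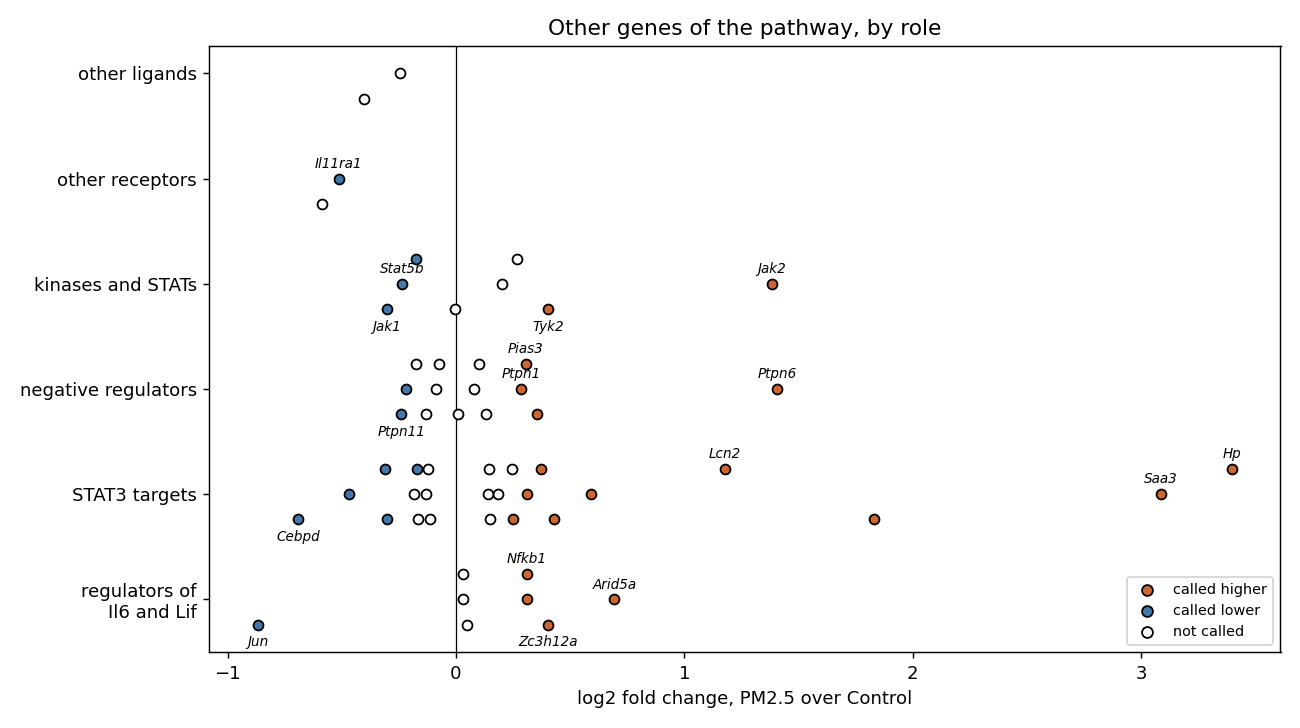
Log2 fold change of PM2.5 over Control for the 58 tested genes of the pathway lists, 1 point per gene and 1 row per role; filled points were called and open ones were not, and the vertical offset within a row has no meaning. Hp at 3.40 and Saa3 at 3.09 lie far to the right among the targets, while Jun at -0.87 is the lowest point of all.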

How the data were processed

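The authors deposited unnormalized read counts for 25413 genes in 2 control and 2 PM2.5 libraries. RPKM values and a second count, the total gene reads, were deposited by the authors as well, per the file headers. Per the labels' protocols, libraries came from a stranded, ligation-based polyA kit. The submitters' processing notes name GRCm39; for the aligner, counter, annotation release and use of strand the status is: not given in the sources used here.

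Counts were tested with edgeR 4.0.16 in R 4.3.3 (filterByExpr, TMM, quasi-likelihood F test, unpaired, Benjamini-Hochberg over 12478 genes, threshold 0.05). Adjusted p-values without another tool named come from that fit, SE was derived by dividing the size of the log2 difference by the root of its F statistic, and CPM is TMM scaled. A count of 3, the floor, is 0.114 to 0.162 CPM. Intervals of counts cover counting error only. Alternatives used DESeq2 1.42.0, limma 3.58.1 (voom, and trend on log2(RPKM + 0.1) and log2(RPKM + 1)), other scalings and filters, a replicate block, each library left out, total gene reads and a positional correction. All members were named, with up to 4 genes of smallest p in each pathway list. Beside them, 2 genes were taken off the lists as first drawn and are not reported here. Members, lists and the positional correction were chosen with earlier results of these data known.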

Additional observations from a re-analysis of the deposited data

How the results depend on the processing

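Across 16 alternatives the 10 members gave 158 values, of which 127 kept direction and call, 20 lost a call and 11 changed sign; the 20 other named genes gave 319 values, of which 302, 15 and 2 did so. No value is given for Lifr without Control replicate 2, where the control side is 1 count, and Il11 and Il27ra were not tested under the stricter filter. Leaving out a library leaves 1 in its group, which the fit assumes to vary like the other group. The cause of the shifts below was not tested.

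Members called lower went from 1 to 0 with scaling to library size only, upper quartile, DESeq2 and limma-trend on log2(RPKM + 1), to 0 with any library left out, and to 2 with total gene reads. Kinases and STATs called lower went from 3 to 1 with library size only and with limma-trend at either pseudocount, and to 0 with the positional correction, and ranged from 1 to 2 with a library left out. Those called higher, 2 in all libraries, numbered 2 to 4 with a library left out. Negative regulators called lower went from 2 to 1 with library size only, upper quartile, DESeq2, limma-trend at either pseudocount and the positional correction, and ranged from 0 to 2 with a library left out; those called higher ranged from 1 to 3. STAT3 targets called lower went from 5 to 3 with limma-trend at either pseudocount and ranged from 3 to 4 with a library left out. Other receptors called lower went from 1 to 0 with the positional correction. Other ligands called higher went from 0 to 1 with no filter and with total gene reads; the count at an unadjusted p under 0.05 in the edgeR fit was 0. Over all genes, 2400 called higher became 1391 with DESeq2 and 1502 to 2305 with a library left out, and 2545 called lower became 1623 to 2538; the lowest of both came without PM2.5 replicate 2. Scaling to library size only moved the split to 3079 higher and 1880 lower, and shifted the median log2 fold change of all tested genes from 0.01 to 0.07.

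The sign of Stat3 turned to 0.0427 with library size only, 0.0236 with upper quartile, 0.14 after positional correction, 0.00846 and 0.00802 with limma-trend at the pseudocounts 0.1 and 1, 0.0913 without Control replicate 2 and 0.0319 without PM2.5 replicate 1, and ranged from -0.12 to 0.0913 with a library left out. With a library left out Il6 ranged from -0.32 to 0.22, Il11 from -0.30 to 0.55, and Ctf1 from -0.51 to 0.0259. Il11 was at -0.71 with total gene reads and Jak1 at 0.0497 with the positional correction.

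Same-numbered libraries of the groups deviated from their group means with a correlation of 0.124 across 12478 genes, and nothing in the labels says that a number marks a shared culture. With the replicate block 6 members were higher and 1 lower, as without it, kinases and STATs called higher numbered 4, and 2797 genes were higher and 2976 lower. With 2 libraries a group, small changes in the raw counts of low members such as Il11 cannot be detected at this depth. Of the total gene reads of Il11, 86.7% to 94.7% lay outside the raw count.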

Other observations

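Reads that the deposited total gene reads hold beyond the raw count are given here for some members, with no test. They came from the same libraries as the counts and are not scaled to library size. For Lif these were 215 and 228 reads in the controls and 492 and 363 in PM2.5, higher in both PM2.5 libraries, as were the counts. For Il6ra they were 218 and 318 against 445 and 390. For Lifr they were 2 and 1 against 18 and 32, so the order of the PM2.5 libraries was the opposite of that in the counts. For Il6 they were 29 and 74 against 60 and 49. For Osmr they were 379 and 737 against 610 and 635, so the groups overlapped. For Il11 they were 195 and 214 against 122 and 98, lower in both PM2.5 libraries. Il6st had few such reads for its level, 1.03% to 1.68% of its total gene reads, whereas Il6 had 26.6% to 37.3% and Lif 30.5% to 37.5%.

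Cish, a feedback inhibitor of STAT5 signalling, and Ebi3, a subunit of interleukin 27, were too low to be tested and were chosen after their values were seen. Cish had 0, 2, 9 and 12 counts and Ebi3 0, 3, 10 and 8 counts in Control replicates 1 and 2 and PM2.5 replicates 1 and 2. The other untested list genes above the floor overlapped between the groups. In the same order, Ctf2 had 5, 12, 3 and 8 counts, Il11ra2 9, 21, 10 and 9, and Lrg1 4, 3, 7 and 0.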
